A study of Mus musculus with 24 samples.

Results

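The 10 genes described here carry signals inside the cell from Toll-like receptors (TLRs): the adaptors Myd88, Tirap and Ticam1, the IRAK kinases Irak4, Irak1, Irak2 and Irak3, the ubiquitin ligase Traf6, the kinase Map3k8 and the chaperone Unc93b1. Traf6, Map3k8 and Unc93b1 are neither adaptors nor IRAK kinases. They were taken by gene symbol, and each of the 10 has a row in the count tables, which hold 27179 genes in all. All 10 passed the filter on low counts at every stage.

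TLRs sense microbial products, and B cells respond to them by dividing and by turning into antibody-secreting cells. Most TLRs recruit MyD88, with TIRAP as a bridging adaptor at some of them, and MyD88 assembles IRAK4 with IRAK1 or IRAK2, which pass the signal to TRAF6. TRIF, the product of Ticam1, serves TLR3 and TLR4, and TLR4 is the receptor for LPS. IRAK3, also called IRAK-M, restrains the pathway, MAP3K8 (TPL2) starts the ERK branch, and UNC93B1 escorts nucleic acid-sensing TLRs such as TLR9 to endosomes.

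RNA sequencing was performed on lymph node B cells of C57BL/6 mice, naive or cultured for 48 h with CD40L and IL-4 or with LPS and IL-4. At each stage 4 genotypes were compared with 2 libraries each, 24 libraries in all. Control mice carried the Cd23-Cre transgene alone (Cd23T/+), PU.1 cKO mice were Spi1fl/fl Cd23T/+, SpiB KO mice were Spi1fl/fl Cd23+/+ Spib-/- and so lacked Cre, and PU.1 SpiB DKO mice were Spi1fl/fl Cd23T/+ Spib-/-. PU.1, encoded by Spi1, and SpiB, encoded by Spib, are related ETS transcription factors, and the design asked whether they act alone or redundantly. Cd23-Cre acts from the transitional B cell stage, so PU.1 was present in earlier B cell development. The cells were sorted as CD3- B220+ CD138-. The study's methods describe the 2 libraries of a group as biological replicates. The labels call them rep1 and rep2 and do not say which animals they came from, so the p-values measure the spread between these samples.

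Total counts were 14231188 to 18194629 per naive library, 9598674 to 61640683 with CD40L and IL-4, where PU.1 cKO replicate 2 was the deepest and the next held 11434235, and 22757630 to 73658850 with LPS and IL-4. B cell markers summed to between 2785 and 11097 CPM (counts scaled to a common library total) in every library. In naive cells the sums were 10914 to 11097 in control and 8191 to 8841 in PU.1 SpiB DKO. With CD40L they were 5502 to 7108 in control and 3657 to 4695 in PU.1 SpiB DKO, lowest of the genotypes in both stages. With LPS they were 3299 to 3729 in control, 3625 to 3636 in PU.1 SpiB DKO and lowest in PU.1 cKO, at 2785 to 2950. Their part in the member results was not tested. Spib was at 1601 and 1416 CPM in naive control cells and 91.3 and 85.4 CPM in naive SpiB KO cells. Both naive PU.1 SpiB DKO libraries were at 104 and 107 CPM. In culture Spib was at 384 and 514 CPM (CD40L) and 265 and 209 CPM (LPS) in control, and between 8.87 and 36.2 CPM in the 8 libraries without SpiB. PU.1 cKO libraries held Spib at 2325 and 2060 CPM in naive cells, above both naive control libraries. In culture they held it at 461 and 453 CPM (CD40L) and 220 and 170 CPM (LPS). Spi1 was at 169 and 182 CPM in naive control cells, 63.6 and 57.0 in PU.1 cKO cells and 108 and 118 in PU.1 SpiB DKO cells. In the CD40L culture Spi1 was at 81.9 and 105 CPM in control cells, against 46.0 and 34.8 for PU.1 cKO and 31.7 and 25.1 CPM for PU.1 SpiB DKO. With LPS and IL-4 it was at 69.1 and 60.0 CPM in control cells, against 42.5 and 39.5 for PU.1 cKO and 58.8 and 54.8 in PU.1 SpiB DKO cells, which did not pass the test. Counts over the whole gene include exons outside the deleted part, so the Spi1 level checks the deletion only in part. Per the study's read coverage, the floxed Spi1 exon was kept in part in naive PU.1 SpiB DKO cells, and was cut out in naive PU.1 cKO cells and in both cultures. Naive PU.1 SpiB DKO cells are therefore a partial deletion of PU.1, and Spi1 was 0.92 higher in them than in naive PU.1 cKO cells (SE 0.11, adjusted p = 0.000571). Neutrophil markers summed to at most 2.80 CPM in any library. The ribosomal RNA gene Rn45s held 6.64% of counts in CD40L PU.1 SpiB DKO replicate 1 and 0.464% in its replicate 2. It held 3.62% in naive control replicate 1 and 0.185% in its replicate 2. In LPS PU.1 cKO replicate 2 it held 3.26%, and in all other libraries at most 1.86%. Its part in the gaps between replicates was not tested.

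Levels below are CPM after TMM scaling over all libraries. A gene is called differentially expressed (DE) when its adjusted p in edgeR's quasi-likelihood test was below 0.15 over all genes tested and its fold change was above 1.5. Fold changes are given on the log2 scale with their standard error (SE). In bulk RNA, fewer cells of a type and less RNA per cell cannot be told apart. The 3 mutants of a stage were compared with the same 2 control libraries. SpiB KO differs from control in the Cre transgene as well as in Spib, and the 2 cannot be told apart.

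The promoters are shown because PU.1 and SpiB bind purine-rich sequences with a GGAA core. RefSeq promoter entries of build GRCm38.p6, from 250 bases before to 50 bases after a gene start, were matched for 8 of the 10 genes and were not given for Unc93b1 and Map3k8. The 250 bases before the start were searched. GGAA on either strand was found in all 8, as in 93.4% of all promoters. The longer GAGGAA, which contains GGAA, was found in Traf6 and Ticam1, against 23.3% of all promoters, and GAGGAAGT in none, against 2.44%. The 3 GAGGAA matches are printed with the motif in capitals, the first at chr2:101678247-101678276 on the plus strand, the second at chr2:101678302-101678331 on the plus strand and the third at chr17:56276780-56276809 on the minus strand. They lie 155, 100 and 24 bases before the start of their gene.
Traf6, distal match: ttgcactggtccGAGGAAgggctacgtgat
Traf6, proximal match: aaacttctttgcGAGGAAgggcggggtaag
Ticam1: agacccggaaggGAGGAAggggcggaaccg
Neither Traf6 nor Ticam1 was DE between a mutant and control at any stage, as given with their values further on. These matches are descriptions of letters and were not tested as binding sites.

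In control B cells the members stood far apart in level per length of transcript. By the deposited log2 RPKM, Unc93b1 was highest at every stage, with 8.74 ± 0.0075 (SD, n = 2) in naive cells, 8.04 ± 0.14 with CD40L and IL-4 and 7.5 ± 0.36 with LPS and IL-4. Myd88 was next at every stage, with 5.12 ± 0.047, 5.56 ± 0.079 and 5.52 ± 0.063. Tirap was lowest at every stage, with 1.78 ± 0.11, 1.09 ± 0.15 and 1.51 ± 0.059. In naive cells Irak2 was at 4.81 ± 0.22 and Irak1 at 4.62 ± 0.034, a gap within the spread of Irak2, and Irak3, Irak4 and Ticam1 lay between 3.71 and 3.90, gaps within the SD of Irak3 (0.22). The RPKM table of the LPS libraries was normalized apart from the other, so log2 RPKM was compared within a table only.

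Members DE between stages in control cells were Irak2, Irak3, Irak4, Map3k8, Ticam1 and Unc93b1. Against naive control cells, 5 of 10 members were DE with CD40L and IL-4 beside 48.8% of all genes tested. In the LPS culture 6 of 10 were DE beside 63.9% of all genes. Between the 2 cultures 1 of 10 was DE, beside 41.2%. The labels name no sequencing run, so stage cannot be told apart from how each set of libraries was prepared or run. Naive and LPS counts were deposited together and CD40L counts apart, so comparisons with the CD40L culture also cross that divide.

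Irak2 fell most. It was at 80.4 and 99.7 CPM in naive control cells, 28.1 and 25.8 CPM with CD40L and IL-4, and 21.1 and 20.1 CPM with LPS and IL-4. The change was -1.74 (SE 0.25, adjusted p = 8.86e-06) and -2.13 (SE 0.25, adjusted p = 2.67e-07). Unc93b1 fell by 0.86 (SE 0.15, adjusted p = 9.33e-05) with CD40L and IL-4 and by 1.40 (SE 0.15, adjusted p = 1.24e-07) with LPS and IL-4. Irak3 fell by 0.86 (adjusted p = 0.000313) and by 1.01 (adjusted p = 2.54e-05), so an activating and a restraining kinase were both lower after culture.

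Ticam1 and Map3k8 rose in both cultures. Map3k8 was at 8.0 and 14.2 CPM in naive control cells, 28.5 and 25.5 CPM with CD40L and IL-4, and 47.9 and 50.5 CPM with LPS and IL-4. Its change was 1.28 (SE 0.27, adjusted p = 0.000527) and 2.15 (SE 0.27, adjusted p = 6.36e-07), and it was also higher with LPS than with CD40L, by 0.86 (SE 0.25, adjusted p = 0.00798). Ticam1 went from 28.8 and 46.1 CPM to 79.7 and 71.8 CPM with CD40L and IL-4 (1.02, SE 0.15, adjusted p = 1.4e-05) and 63.6 and 60.1 CPM with LPS and IL-4 (0.72, SE 0.15, adjusted p = 0.000273). Without naive control replicate 1, the lower of the 2 naive libraries, the LPS change of Ticam1 was 0.42 and no longer DE. Irak4, the first kinase of the chain, fell by 0.91 (SE 0.15, adjusted p = 2.68e-05) with LPS and IL-4 and was at -0.34 (adjusted p = 0.0673) with CD40L and IL-4, under the fold limit. Irak4 lies on chromosome 15 (GRCm38, 94543613 to 94568317, plus strand) and shares 7.87% of its exonic bases with Twf1 on the other strand, which was 1.25 higher with LPS and IL-4. Myd88, Irak1, Traf6 and Tirap were DE in neither culture.

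**Figure D1:**
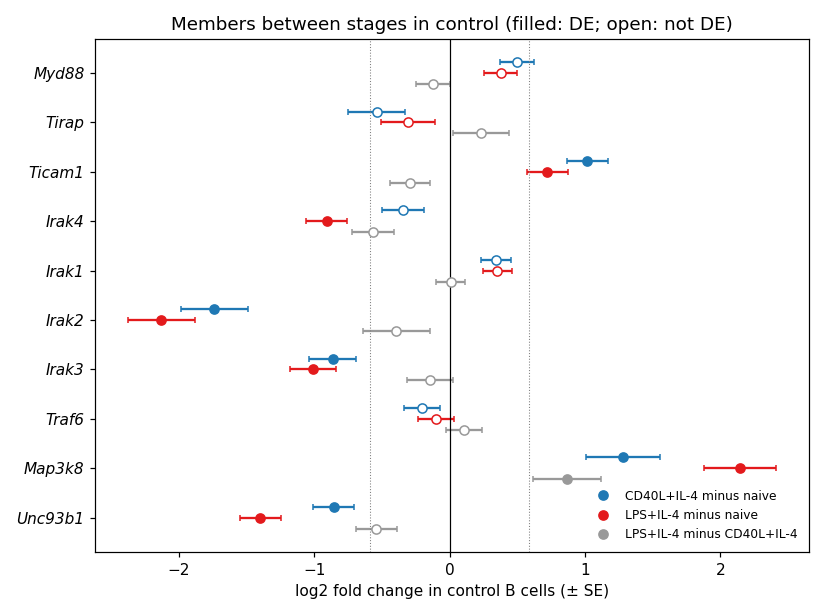
Log2 fold change of each member between stages in control B cells (x axis, with SE bars, 2 libraries per stage), filled where DE. Irak2 lies farthest to the left, at -1.74 and -2.13, and Map3k8 farthest to the right, at 1.28 and 2.15.

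The plot of levels by library holds the values on which the comparisons of genotypes rest.

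**Figure D2:**
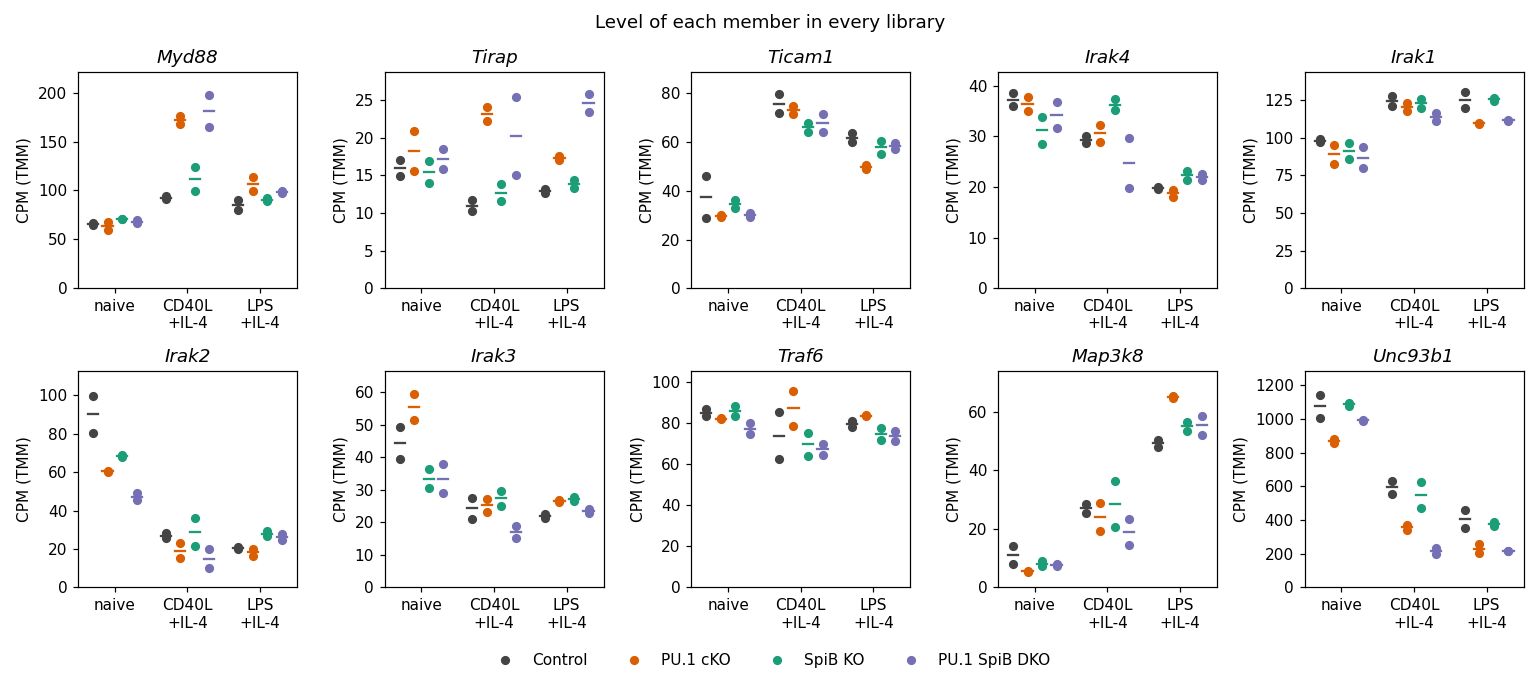
CPM of each member in every library (y axis, linear from 0) by stage, coloured by genotype, with the mean of the 2 libraries as a line. Unc93b1 is lowest without PU.1 in both cultures, and Myd88 is high without PU.1 with CD40L and IL-4.

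The adaptor Myd88 separated the genotypes in the CD40L culture. Control libraries were at 91.3 and 93.9 CPM, PU.1 cKO at 168 and 176 CPM, SpiB KO at 99.3 and 123 CPM and PU.1 SpiB DKO at 164 and 198 CPM. No library of either PU.1-deficient genotype overlapped control or SpiB KO. Myd88 rose by 0.87 (SE 0.16, adjusted p = 0.00814) in PU.1 cKO cells, 1.83-fold. The rise in PU.1 SpiB DKO cells was 0.96 (SE 0.16, adjusted p = 0.00336), 1.94-fold. Among naive cells it stood between 59.1 and 70.5 CPM in all 8 libraries and was not DE. With LPS and IL-4 it was at 79.9 and 90.0 CPM in control, at 98.9 and 113 for PU.1 cKO and at 99.6 and 97.4 CPM for PU.1 SpiB DKO, a difference of 0.34 (adjusted p = 0.0407) and 0.29 (adjusted p = 0.0376) that stayed under the fold limit. The genotype effect itself differed between the CD40L culture and naive cells, by 0.94 for PU.1 cKO (adjusted p = 0.00436), and by 0.91 for the double mutant (adjusted p = 0.00197).

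Myd88 lies on chromosome 9 (GRCm38, 119335934 to 119340018, minus strand), and 11.3% of its exonic bases are shared with Acaa1a on the other strand. Whether the counting used strand was not given in the sources used here. Acaa1a, looked at after its values were seen, was at 0.15 (adjusted p = 0.625) in PU.1 cKO cells of the CD40L culture and at 0.42 (adjusted p = 0.108) in double mutant cells. Plasma cell markers, 6 genes, summed to 1291 to 1470 CPM in control, 2165 to 2366 in PU.1 cKO and 2751 to 2912 in PU.1 SpiB DKO cells of that culture, and 1257 to 1832 in SpiB KO cells. Their part in the Myd88, Tirap and Unc93b1 results was not tested.

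Tirap, the lowest of the 10, rose in PU.1 SpiB DKO cells of both cultures and in PU.1 cKO cells of the CD40L culture. With CD40L and IL-4 it was at 11.7 and 10.2 CPM in control. PU.1 cKO libraries stood at 24.1 and 22.2, SpiB KO libraries at 11.6 and 13.8, and PU.1 SpiB DKO libraries at 25.4 and 15 CPM. The rise was 1.05 (SE 0.25, adjusted p = 0.0237) in PU.1 cKO and 0.87 (SE 0.25, adjusted p = 0.0439) in PU.1 SpiB DKO cells. The PU.1 SpiB DKO value depended on single libraries, at 0.44 (adjusted p = 0.286) without its replicate 1 and 0.77 (adjusted p = 0.157) without control replicate 2. With LPS and IL-4 the libraries were at 12.6 and 13.2 CPM in control. The PU.1 cKO libraries gave 17 and 17.6, those of SpiB KO 14.3 and 13.3, and those of PU.1 SpiB DKO 23.4 and 25.8 CPM. There the PU.1 SpiB DKO libraries were above all others, 1.0 over control (SE 0.11, adjusted p = 0.000151) and 0.90 over SpiB KO (SE 0.11, adjusted p = 0.000598). They were 0.56 over PU.1 cKO (adjusted p = 0.00836), under the fold limit, and PU.1 cKO was 0.45 over control (adjusted p = 0.0262), also under it. Naive libraries overlapped between 14 and 20.8 CPM. Tirap lies on chromosome 9 (GRCm38, 35184391 to 35200291, minus strand), with 9.05% of its exonic bases under the antisense gene Gm39318.

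Ticam1, the adaptor of the TRIF branch, was not DE in any mutant. With LPS and IL-4 it was at 63.6 and 60.1 CPM in control and 50.7 and 48.8 in PU.1 cKO cells, a difference of -0.29 (adjusted p = 0.0589) under the fold limit. In naive cells the control libraries, at 28.8 and 46.1 CPM, spanned the mutants, which lay between 29.2 and 36.2 CPM. Without naive control replicate 1 Ticam1 was DE in PU.1 cKO at -0.67 (adjusted p = 0.0186).

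Irak2, on chromosome 6 (GRCm38, 113638467 to 113695026, plus strand), joins IRAK4 in the signalling complex. Its naive libraries differed between genotypes. Control libraries were at 80.4 and 99.7 CPM, PU.1 cKO at 60.0 and 60.7 CPM, SpiB KO at 67.9 and 68.9 CPM and PU.1 SpiB DKO at 45.4 and 49.1 CPM. All 6 mutant libraries were below both control libraries, and PU.1 SpiB DKO was below the rest. Irak2 fell by 0.92 (SE 0.14, adjusted p = 0.00153) in PU.1 SpiB DKO cells and by 0.59 (SE 0.14, adjusted p = 0.0334) in PU.1 cKO cells, just past the fold limit, while SpiB KO was at -0.40 (SE 0.13, adjusted p = 0.129). The PU.1 cKO call was lost at -0.39 (adjusted p = 0.136) without control replicate 2, at -0.58 (adjusted p = 0.201) without its own replicate 1 and at -0.61 (adjusted p = 0.167) without its replicate 2. T cell markers summed to 12.3 to 38.9 CPM in naive control, 256 to 318 in SpiB KO and 362 to 372 in PU.1 SpiB DKO cells, from Cd4 and Cd8a, while Cd3d, Cd3e and Cd3g were at most 1.29 CPM in any naive library. Plasmacytoid dendritic cell markers summed to 199 to 321 CPM in control, 1062 to 1336 in SpiB KO and 1410 to 1508 in PU.1 SpiB DKO naive cells. Their part in the Irak2 and Irak3 results was not tested.

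In the CD40L culture Irak2 was at 28.1 and 25.8 CPM in control. PU.1 cKO libraries stood at 22.9 and 15.2, SpiB KO libraries at 36.3 and 21.6, and PU.1 SpiB DKO libraries at 20.1 and 9.89 CPM. The replicates lay far apart in each of the mutants. It was DE in PU.1 SpiB DKO at -0.86 (SE 0.34, adjusted p = 0.125). The call was lost without control replicate 1 (-0.79, adjusted p = 0.352), without control replicate 2 (-0.93, adjusted p = 0.197) and without PU.1 SpiB DKO replicate 2 (-0.42, adjusted p = 0.544). In the LPS culture Irak2 was at 21.1 and 20.1 CPM in control. PU.1 cKO libraries stood at 20.2 and 16.5, SpiB KO libraries at 29.1 and 26.7, and PU.1 SpiB DKO libraries at 27.8 and 24.5 CPM. Both genotypes without SpiB were above control there, by 0.45 (adjusted p = 0.126) and 0.42 (adjusted p = 0.0286), and neither passed the fold limit. The PU.1 SpiB DKO effect on Irak2 was 1.28 higher with LPS and IL-4 than in naive cells (SE 0.34, adjusted p = 0.0141).

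Irak3, the restraining member, was at 39.5 and 49.4 CPM in naive control. The PU.1 cKO libraries gave 51.5 and 59.3, those of SpiB KO 30.5 and 36.4, and those of PU.1 SpiB DKO 28.9 and 37.8 CPM. PU.1 SpiB DKO was 0.72 below PU.1 cKO (SE 0.18, adjusted p = 0.0336), and no mutant was DE against control. That call was lost without PU.1 SpiB DKO replicate 1 (-0.55, adjusted p = 0.214) and without PU.1 cKO replicate 2 (-0.61, adjusted p = 0.228). With CD40L and IL-4 Irak3 was at 27.6 and 21.1 CPM in control and 19.0 and 15.1 in PU.1 SpiB DKO cells, -0.53 (adjusted p = 0.122). Under LPS and IL-4, Irak3 was at 22.7 and 21.4 CPM in control and 24.1 and 22.7 in PU.1 SpiB DKO cells. Both single mutants were above these, PU.1 cKO at 26.1 and 26.9 and SpiB KO at 26.5 and 27.8 CPM, and no mutant was DE against control. Irak3 lies on chromosome 10 (GRCm38, 120141648 to 120202130, minus strand) and shares 5.22% of its exonic bases with Tmbim4 on the other strand. Against naive control cells Tmbim4 fell as Irak3 did, by 0.60 with CD40L and IL-4 (adjusted p = 0.0055) and 0.93 with LPS and IL-4 (adjusted p = 5.6e-05). In PU.1 SpiB DKO cells of the CD40L culture Tmbim4 was 0.62 higher than in control (adjusted p = 0.034). Its part in the Irak3 values was not tested.

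Irak4 and Irak1 were not DE between any mutant and control. Irak4 was at 35.9 and 38.5 CPM in naive control cells and between 28.6 and 37.7 CPM in the naive mutants. After LPS and IL-4 culture, it was at 20.1 and 19.5 CPM in control and 22.6 and 21.4 in PU.1 SpiB DKO cells, 0.23 (adjusted p = 0.123). Irak1 was between 79.8 and 99.1 CPM in naive libraries, 111 and 128 CPM with CD40L and IL-4 and 109 and 131 CPM with LPS and IL-4. Traf6, where the chain turns to NF-kB and MAP kinases, was between 74.6 and 88.4 CPM in naive libraries, 62.6 and 95.9 CPM with CD40L and IL-4 and 71.4 and 83.9 CPM with LPS and IL-4, and was not DE either.

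Map3k8 was at 8.0 and 14.2 CPM in naive control. PU.1 cKO libraries stood at 5.44 and 5.48, SpiB KO libraries at 7.30 and 8.90, and PU.1 SpiB DKO libraries at 7.90 and 7.48 CPM. The PU.1 cKO libraries were the lowest, and 1 control library stood above all others. The fall was 1.03 (SE 0.29, adjusted p = 0.0626), and it was lost without control replicate 2 (-0.53, adjusted p = 0.318), without PU.1 cKO replicate 1 (-1.03, adjusted p = 0.278) and without PU.1 cKO replicate 2 (-1.05, adjusted p = 0.224). In LPS cells Map3k8 was at 47.9 and 50.5 CPM in control and 65.4 and 64.8 in PU.1 cKO cells, 0.42 (SE 0.09, adjusted p = 0.0129) and under the fold limit.

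Unc93b1, on chromosome 19 (GRCm38, 3935158 to 3949340, plus strand), was the member DE in most comparisons with control, 4 of 9. With CD40L and IL-4 it was at 554 and 634 CPM in control. PU.1 cKO libraries stood at 369 and 343, SpiB KO libraries at 624 and 473, and PU.1 SpiB DKO libraries at 236 and 202 CPM. The genotypes without PU.1 lay below all other libraries, and PU.1 SpiB DKO lay below PU.1 cKO. Unc93b1 fell by 0.76 (SE 0.18, adjusted p = 0.0226) in PU.1 cKO cells, and the fall in PU.1 SpiB DKO cells was 1.45 (SE 0.18, adjusted p = 0.000455). The PU.1 cKO call was lost without PU.1 cKO replicate 2, the deepest library of that culture, at -0.69 (adjusted p = 0.206).

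In the culture with LPS, Unc93b1 was at 462 and 355 CPM in control. The PU.1 cKO libraries gave 258 and 203, those of SpiB KO 365 and 389, and those of PU.1 SpiB DKO 215 and 216 CPM. The fall was 0.81 (SE 0.14, adjusted p = 0.00627) in PU.1 cKO and 0.85 (SE 0.15, adjusted p = 0.00207) in PU.1 SpiB DKO cells. Without control replicate 1 the PU.1 cKO value was -0.58 (adjusted p = 0.0246), under the fold limit. In naive cells the libraries were at 1143 and 1009 CPM in control, at 857 and 883 for PU.1 cKO and at 995 and 991 CPM for PU.1 SpiB DKO, with a PU.1 cKO difference of -0.31 (adjusted p = 0.109). The PU.1 SpiB DKO effect was 1.32 lower with CD40L and IL-4 than in naive cells (adjusted p = 0.000357) and 0.81 lower with LPS and IL-4 (adjusted p = 0.0139). Per the study's read coverage, the Spi1 deletion differed too, partial in naive PU.1 SpiB DKO cells and complete in the cultures. The effect on the Spi1 level was -0.63 in naive cells and -1.73 with CD40L and IL-4, a difference of -1.09 (adjusted p = 0.00252). With LPS and IL-4 Spi1 was at 58.8 and 54.8 CPM in PU.1 SpiB DKO and 69.1 and 60.0 in control cells, not DE. The Spi1 level thus did not follow the deletion in every stage, and its part in the Unc93b1 differences was not tested. Macrophage markers summed to 30.7 to 44.5 CPM in CD40L control cells and 4.76 to 8.11 in PU.1 SpiB DKO cells, mostly from Adgre1, while Csf1r was at 0 in all 8 libraries of that culture. In PU.1 cKO and SpiB KO cells of that culture the sums were 6.04 to 7.57 and 29.8 to 45.8 CPM. The part of these markers in the Unc93b1 result was not tested.

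The genes whose levels followed Unc93b1 most closely over the 24 libraries, after removing stage means, were Tlr9 (Pearson r = 0.972), Lgmn (r = 0.966) and Ncf1 (r = 0.963) of 9651 genes compared. These libraries share their genotypes and depth, so r is a description. Tlr9, the receptor for CpG DNA that UNC93B1 carries, was at 122 and 140 CPM in control and 24.1 and 21.2 in PU.1 SpiB DKO cells with CD40L and IL-4, -2.54 (SE 0.20, adjusted p = 2.39e-05). For LPS and IL-4, it was at 86.4 and 68.1 CPM in control and 25.6 and 30.6 in PU.1 SpiB DKO cells, -1.39 (SE 0.17, adjusted p = 0.000294). Lgmn encodes the endosomal protease legumain, and Ncf1 a subunit of the phagocyte NADPH oxidase. Tlr7, another receptor that UNC93B1 carries, chosen here after its values were seen, was DE in no mutant, with fold changes against control between -0.11 and 0.31.

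**Figure D3:**
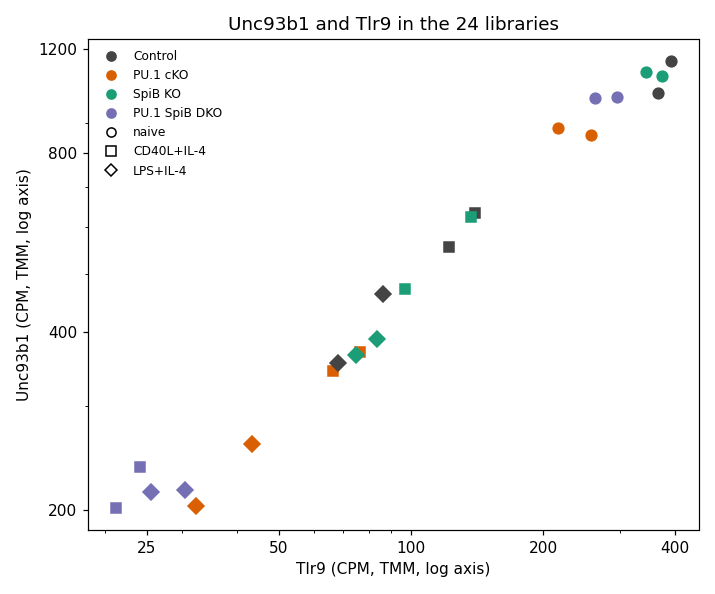
Unc93b1 against Tlr9 in every library (both axes CPM on a log scale), coloured by genotype and shaped by stage. PU.1 SpiB DKO libraries of the CD40L culture lie lowest on the Tlr9 axis, at 24.1 and 21.2 CPM.

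Counted over the members, naive cells had 2 of 10 DE in PU.1 cKO (Irak2 and Map3k8) beside 10.7% of all genes tested, 0 in SpiB KO beside 9.62%, and 1 in PU.1 SpiB DKO (Irak2) beside 21.2%. With CD40L and IL-4 3 members were DE in PU.1 cKO (Myd88, Tirap and Unc93b1) beside 13.5%, 0 in SpiB KO beside 0.134%, and 4 in PU.1 SpiB DKO (Myd88, Tirap, Unc93b1 and Irak2) beside 18.3%. After LPS and IL-4 1 member was DE in PU.1 cKO (Unc93b1) beside 10.5%, 0 in SpiB KO beside 3.19%, and 2 in PU.1 SpiB DKO (Tirap and Unc93b1) beside 20.2%. In SpiB KO, edgeR gave 2, 0 and 2 members an unadjusted p below 0.05 in naive, CD40L and LPS cells, and DESeq2 and voom also called 0. The median log2 fold change of the 10 members lay between -0.21 and 0.19 in the 9 comparisons.

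**Figure D4:**
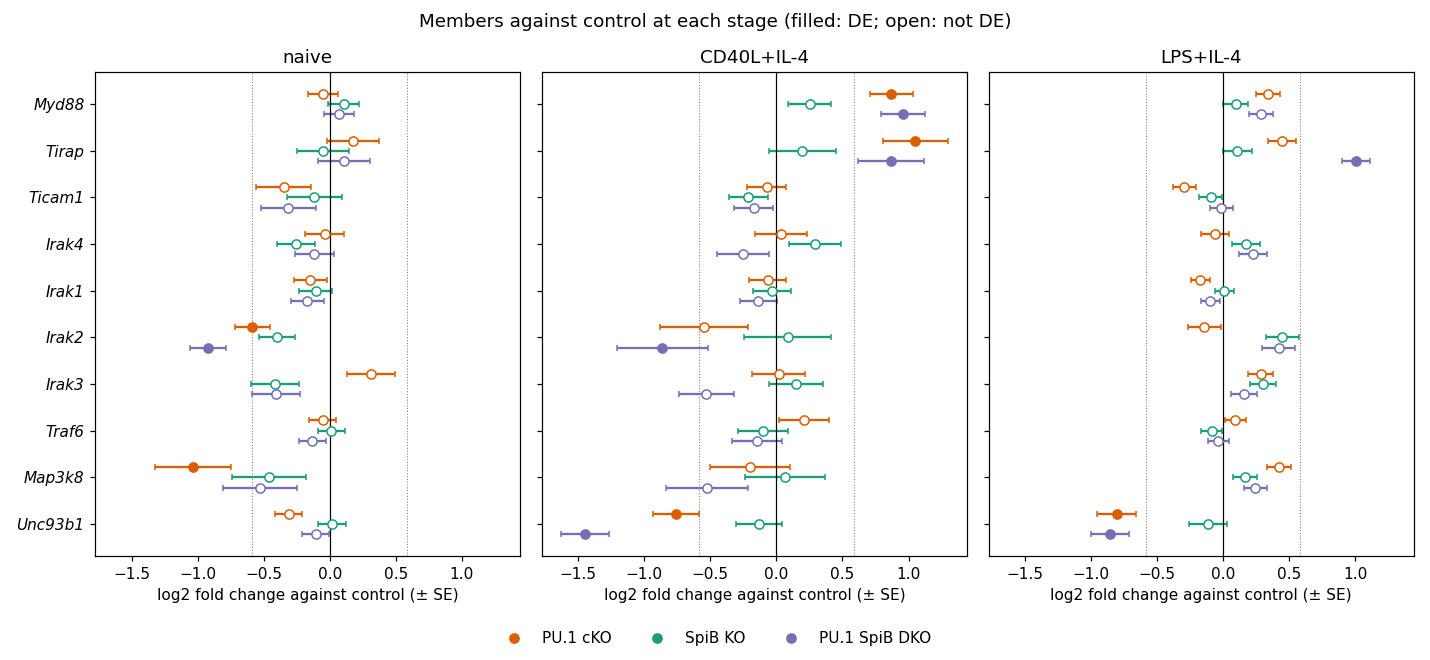
Log2 fold change of each member against control (x axis, with SE bars, 2 libraries per group) in the 3 stages, filled where DE. Dotted lines mark a 1.5-fold change. Unc93b1 in PU.1 SpiB DKO cells with CD40L and IL-4 lies farthest to the left, at -1.45.

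The double mutant was also compared with each single mutant, with 2 limits: SpiB KO also lacks the Cre transgene, and in naive cells the deletion of Spi1 was partial in PU.1 SpiB DKO, so that PU.1 cKO differs from it in Spi1 as well as in Spib. Against PU.1 cKO, 1 of 10 members was DE in naive cells (Irak3) beside 12.9% of all genes, 1 with CD40L and IL-4 beside 4.06% and 0 with LPS and IL-4 beside 12.6%. In the last, 4 members had an unadjusted p below 0.05 and DESeq2 and voom called 0. Unc93b1 was the CD40L member, at -0.69 (SE 0.18, adjusted p = 0.09), and it was lost without PU.1 cKO replicate 2 (-0.75, adjusted p = 0.265), without PU.1 SpiB DKO replicate 2 (-0.59, adjusted p = 0.461) and without PU.1 cKO replicate 1 (-0.64). Against SpiB KO, 0 of 10 were DE in naive cells beside 3.05% of all genes, with 1 at an unadjusted p below 0.05 and 0 by DESeq2 and voom. With CD40L and IL-4 5 were DE beside 15.3%: Myd88 higher by 0.71 (adjusted p = 0.02), Tirap higher by 0.67 (adjusted p = 0.117), Irak2 at -0.95 (adjusted p = 0.11), Irak3 at -0.68 (adjusted p = 0.0635) and Unc93b1 at -1.32 (adjusted p = 0.00121). Of these 5, Unc93b1 alone stayed DE when any library was left out. Without SpiB KO replicate 1 Myd88 was at 0.56, Tirap at 0.55, Irak2 at -0.53 and Irak3 at -0.55. In the LPS culture 2 were DE beside 12.8%, Tirap and Unc93b1, at 0.90 and -0.74 (SE 0.14, adjusted p = 0.00785).

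Redundancy would show as a double mutant effect beyond the sum of the single effects. SpiB KO alone lacked the Cre transgene, so at every stage an effect of Cre cannot be told apart from such a departure. No member was DE by that test in any stage, beside 0.936%, 1.17% and 1.38% of all genes in naive, CD40L and LPS cells. In edgeR 1, 2 and 4 members had an unadjusted p below 0.05, and DESeq2 and voom called 0 in each stage. Unc93b1 with CD40L and IL-4 departed by -0.56 (SE 0.25, adjusted p = 0.61) and Tirap with LPS and IL-4 by 0.45 (SE 0.15, adjusted p = 0.32), so neither is shown to be additive or otherwise. In naive cells the test is limited by the partial deletion, and Spi1 itself departed there by 0.93 (SE 0.16, adjusted p = 0.0486). Tlr9 with CD40L and IL-4 departed by -1.47 (SE 0.27, adjusted p = 0.0563) and was DE. Lgmn, also like Unc93b1 in pattern, departed there by -1.22 (SE 0.26, adjusted p = 0.114) and was DE too. Ncf1 departed by -1.13 (SE 0.29, adjusted p = 0.182) and was not DE.

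The effect of a genotype on a member was also tested for a difference between stages. For PU.1 cKO 2 of 10 members differed between the CD40L culture and naive cells, 1 between the LPS culture and naive cells and 0 between the cultures, beside 8.16%, 5.88% and 2.97% of all genes. For SpiB KO the counts were 0, 1 and 0, beside 2.13%, 5.36% and 0% of all genes. PU.1 SpiB DKO had 3 in each, beside 14.4%, 23.7% and 22.5%. Where the count was 0, edgeR gave 2 members an unadjusted p below 0.05 for PU.1 cKO between the cultures, and 2 and 0 for SpiB KO, and DESeq2 and voom called 0.

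Of the wider pathway, receptors and their co-receptors (21 listed, 16 tested in naive and CD40L cells and 15 in LPS cells) had 3 higher and 1 lower in naive PU.1 SpiB DKO cells, 0 higher and 5 lower with CD40L and IL-4, and 2 higher and 6 lower with LPS and IL-4. Of all genes tested in these 3 comparisons, 12.6%, 9.13% and 13.7% were DE and higher and 8.64%, 9.2% and 6.52% DE and lower. The receptors' median was -0.060, -0.43 and -0.26, and the median of all genes was within 0.014 of 0 in each. Tlr3 fell in naive cells, from a mean of 10.4 CPM in control to 4.74 CPM (-1.12, adjusted p = 0.0644). Tlr5 was at a mean of 0.188 CPM in naive control and 0.734 in PU.1 SpiB DKO cells, few counts. Il1r1, the IL-1 receptor, rose from 0.246 to 1.12 CPM with LPS and IL-4 (2.20, adjusted p = 0.00242), also a low level.

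Signalling genes downstream of the members (20 listed, all tested) had 1 higher and 4 lower in naive, 0 and 4 in CD40L and 1 and 4 in LPS cells of PU.1 SpiB DKO mice. Irf5, a transcription factor activated through MyD88, fell from a mean of 239.6 to 56.8 CPM with CD40L and IL-4 (-2.08, SE 0.18, adjusted p = 3.52e-05) and from 236 to 71.9 CPM with LPS and IL-4 (-1.65, SE 0.11, adjusted p = 1.23e-05). Irf7, which drives interferon genes, fell from 35.7 to 3.93 CPM with LPS and IL-4 (-3.12, SE 0.17, adjusted p = 4.27e-06). Medians of the list were -0.26, -0.077 and -0.067.

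Regulators of the pathway (17 listed, 16 tested in naive cells and 15 in each culture) had 1 higher and 3 lower, 2 higher and 3 lower, and 1 higher and 2 lower in the same order, with medians of -0.21, -0.27 and -0.20. Peli2, a ubiquitin ligase acting on IRAKs, rose in naive cells from a mean of 0.902 to 6.05 CPM (2.74, SE 0.42, adjusted p = 0.00194). Sarm1, a TIR domain protein, fell there from 1.73 to 0.447 CPM (-1.92, adjusted p = 0.0785), few counts in PU.1 SpiB DKO cells. Hsp90b1 (gp96), a chaperone of TLRs, rose from 1074 to 1810 CPM with CD40L and IL-4 (0.74, adjusted p = 0.0150), and Lrrc59, which helps nucleic acid-sensing TLRs leave the endoplasmic reticulum, from 219 to 344 CPM (0.64, adjusted p = 0.0978). Socs1, an inhibitor of cytokine signalling, rose from 110.2 to 229 CPM with LPS and IL-4 (1.13, SE 0.13, adjusted p = 0.000239). Plasma cell markers summed to 696 to 770 CPM in control and 1849 to 1909 in PU.1 SpiB DKO cells of that culture, and their part in these changes was not tested.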

How the data were processed

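Lymph node B cells of 4 genotypes at 3 stages were sequenced, 2 libraries each. Per the labels and the study's methods, RNA was prepared with the RNeasy and TruSeq kits, and the authors aligned reads with Subread to GRCm38/mm10, counted unique reads over RefSeq exons with featureCounts and used limma. The deposited gene counts are raw; the CD40L libraries are in 1 table and the naive and LPS libraries in another, although the design had assumed a table of its own for LPS. The deposited log2 RPKM values were quantile normalized by the authors over 13569 genes for naive and CD40L libraries together and over 12634 genes for LPS libraries. Rows with no symbol (517, 0.162% of counts) stayed in the totals.

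Counts were tested with edgeR 4.0.16 (R 4.3.3, quasi-likelihood, TMM) on genes that reached 0.5 CPM in 2 or more libraries, per stage on 8 libraries (12500, 12721 and 12445 genes tested), and on 24 libraries (13684 genes) for stage contrasts and for effects that differ between stages. p-values were Benjamini-Hochberg adjusted over all genes tested. Scaling per stage or over all libraries differed by at most 0.057 on the log2 scale. The fits were tested on simulated data. With 2 against 2, an exact permutation test cannot go below p = 0.333, so none is given. Alternatives were RLE size factors, no filter on low counts, DESeq2 1.42.0, voom with quantile normalization (limma 3.58.1), a replicate block, an adjusted p under 0.05, a filter on the deposited log2 RPKM and leaving out each library. Same-numbered LPS libraries deviated together (6 of 6 correlations from 0.386 to 0.514), so their numbers were taken as pairs. The values printed for LPS cells still come from the fit without the block. In LPS cells the block raised the DE genes of SpiB KO from 397 to 627. It raised those of the departure from additivity from 172 to 540, and changed no call of a member there.

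Named are all 10 members, Spi1 and Spib, over the pathway lists the 2 DE genes with the largest fall and the 2 with the largest rise in PU.1 SpiB DKO at each stage, and the 3 genes most like the member DE most often. The members and lists were chosen with earlier results of these data known. Positions come from GENCODE M21 and promoters from RefSeq.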

Additional observations from a re-analysis of the deposited data

Results flagged for a closer look

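In 13 cases the effect of a genotype on a member differed between stages by edgeR's test of the difference itself, over 24 libraries and all 13684 genes. For PU.1 cKO against control, the effect on Myd88 was 0.94 higher with CD40L and IL-4 than in naive cells (adjusted p = 0.00436), that on Tirap 0.88 higher (adjusted p = 0.0993) and, with LPS and IL-4 against naive cells, that on Map3k8 1.43 higher (adjusted p = 0.0562). For SpiB KO, Irak3 differed by 0.71 between LPS and naive cells (adjusted p = 0.139), a value lost when any of 7 of the 8 libraries was left out.

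For PU.1 SpiB DKO, the difference between CD40L and naive cells was 0.91 for Myd88 (adjusted p = 0.00197), 0.77 for Tirap (adjusted p = 0.11) and -1.32 for Unc93b1 (adjusted p = 0.000357). Between LPS and naive cells it was 1.28 for Irak2 (adjusted p = 0.0141), 0.83 for Tirap (adjusted p = 0.0454) and -0.81 for Unc93b1 (adjusted p = 0.0139). Between the cultures it was -0.76 for Myd88 (adjusted p = 0.00787), 1.20 for Irak2 (adjusted p = 0.0289) and 0.61 for Irak3 (adjusted p = 0.0996).

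Tirap in PU.1 cKO was lost without any of 5 libraries, from 0.69 without naive PU.1 cKO replicate 1 (adjusted p = 0.334) to 0.95 without CD40L PU.1 cKO replicate 2 (adjusted p = 0.164). Tirap in PU.1 SpiB DKO between CD40L and naive cells was lost without any of 4 libraries, at 0.35 without CD40L PU.1 SpiB DKO replicate 1 (adjusted p = 0.508), and its LPS difference to 0.72 without naive PU.1 SpiB DKO replicate 1 (adjusted p = 0.157). Map3k8 was lost without any of 4 libraries, and was at 0.95 without naive control replicate 2 (adjusted p = 0.302). Irak2 between the cultures was at 0.77 without CD40L PU.1 SpiB DKO replicate 2 (adjusted p = 0.179), and Irak3, lost without any of 4 libraries, at 0.39 without CD40L control replicate 1 (adjusted p = 0.368). The shares of all genes with such a difference were 8.16%, 5.88% and 2.97% for PU.1 cKO, and 14.4%, 23.7% and 22.5% for PU.1 SpiB DKO, in the order CD40L against naive, LPS against naive and LPS against CD40L. The PU.1 SpiB DKO differences against naive cells set cultures against naive cells in which the Spi1 deletion was partial. The causes were not tested.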

How the results depend on the processing

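Of 47 DE values of members, 47 kept their direction, 35 stayed DE under all 7 alternative settings and 27 whichever library was left out. The members DE in naive PU.1 cKO went from 2 to 1 with voom and quantile normalization, with the replicate block and at an adjusted p under 0.05, and those in naive PU.1 SpiB DKO from 1 to 2 with voom. LPS against CD40L in control went from 1 to 2 with RLE size factors or DESeq2 and to 3 with voom. At an adjusted p under 0.05 the double against single mutants went from 9 to 5 and the differences between stages from 13 to 8. The test of departure from additivity went from 0 to 1 with no filter (Map3k8) and with the replicate block (Irak3). The cause of these changes was not tested. With libraries left out in turn the counts in PU.1 cKO, SpiB KO and PU.1 SpiB DKO ranged from 0 to 3, 0 to 2 and 1 to 4 in naive cells, 2 to 3, 0 to 0 and 3 to 5 with CD40L, and 0 to 1, 0 to 0 and 2 to 2 with LPS. In control they ranged from 5 to 6 for each culture against naive and 1 to 3 between cultures, over double against single mutants from 5 to 10, for additivity from 0 to 1 and for differences between stages from 9 to 19. A direction turned in 5 departures from additivity, none of them DE. With libraries left out, Irak2 ranged from -0.13 (without control replicate 2) to 0.23 in naive cells, and from -0.99 to 0.024 (without SpiB KO replicate 1; 0.0080 without PU.1 SpiB DKO replicate 2) with CD40L. Unc93b1 ranged from -0.18 (without control replicate 1; -0.077 without PU.1 cKO replicate 2) to 0.26 with LPS. The same-numbered libraries correlated at 0.0918 to 0.250 in naive cells (5 of 6 genotype pairs over 0.1) and -0.0702 to 0.266 in CD40L cells (4 of 6), short of all pairs, so there they were taken to share only a number. The naive call lost with the block was Irak2 in PU.1 cKO, at -0.58 (adjusted p = 0.00548), just under the fold limit. Among all genes, departures from additivity went from 117, 149 and 172 (naive, CD40L, LPS) to 996, 647 and 548 with no filter, 401, 284 and 302 with DESeq2 and 885, 409 and 540 with the block, and CD40L went to 75 with voom. SpiB KO with CD40L went from 17 to 193, 76 and 57 by the same 3, and with LPS from 397 to 653 with no filter. PU.1 SpiB DKO against SpiB KO in naive cells went from 381 to 615 with no filter and 604 with the block, and against PU.1 cKO with CD40L from 517 to 998 and 843. Effects that differ between stages went with no filter from 805 to 1543 and 406 to 892 for PU.1 cKO, and from 291 to 765, 734 to 1367 and 0 to 58 for SpiB KO, where DESeq2 gave 3 in place of 0 and voom 191 in place of 291.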
